A study of Mus musculus with 9 samples.

Results

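Knockdown of Nacc1 was set directly against knockdown of Mbnl1 together with Mbnl2 in N2A cells, an established line of mouse neuroblastoma, and the exons and genes that differ between the resulting RNA libraries are described. Each side holds 1 library, so 2 of the 9 libraries of the series carry the comparison. The Nacc1 knockdown (label siNacc1) and the Mbnl1/Mbnl2 knockdown (label siMbnl1/Mbnl2) were made with SMARTpool siRNAs and Lipofectamine RNAiMAX, and polyA RNA was taken 48 hours after transfection. Another library from the same experiment received a non-targeting siRNA pool (label siNT); it enters no difference here and is given beside the values to show where a control library lay. All libraries, the control included, thus carry the transfection itself and siRNA pools. A second experiment of the series, with 2 libraries each for knockdown of Srrm4, knockdown of Zfp871 and its own non-targeting control, serves only to show how far libraries of 1 group lie apart. Either TriZol or a Qiagen kit served to extract the RNA, and the labels do not tie a kit to a library. With 1 library a side no test of the knockdowns is possible, no p-value is given, and all intervals cover counting error only.

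Mbnl1 and Mbnl2 encode muscleblind-like proteins, which bind YGCY motifs (Y is a pyrimidine) in pre-mRNA and promote inclusion or skipping of an exon depending on where they bind. They are known for driving the switch from fetal to adult splicing in muscle and brain, and their sequestration by repeat RNA underlies myotonic dystrophy. Nacc1 encodes NAC1, a transcriptional regulator with a BTB domain that works in the nucleus with other proteins and is not itself known as a classical splicing factor. The series asks how transcription factors bear on networks of regulated splicing, and this comparison sets a transcription factor beside a splicing factor.

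The targeted genes matched their labels. Nacc1 stood at 52 CPM (counts scaled to library size with TMM factors) in the Nacc1 knockdown, against 223 CPM in the Mbnl1/Mbnl2 knockdown and 208 CPM in the control. Its log2 fold change between the knockdowns was -2.10. Mbnl2 stood at 65.6 CPM in the Nacc1 knockdown, against 18.2 CPM in the Mbnl1/Mbnl2 knockdown and 65.7 CPM in the control (log2 fold change 1.85). These targeted genes therefore separated the libraries in the directions their labels give. Mbnl1 stood at 82.7 CPM in the Nacc1 knockdown, against 45.2 CPM in the Mbnl1/Mbnl2 knockdown and 124 CPM in the control, and its log2 fold change of 0.87 did not pass the rule used below. The Nacc1 knockdown thus also held less Mbnl1 RNA than the control library did. Per length, in the authors' deposited cRPKM, Mbnl1 and Mbnl2 stood close together in the Nacc1 knockdown, at levels of 14.7 and 14.3. In the Mbnl1/Mbnl2 knockdown these levels were 8.42 cRPKM for Mbnl1 and 4.15 cRPKM for Mbnl2.

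Total counts were 61038964 in the Nacc1 knockdown, 50086176 in the Mbnl1/Mbnl2 knockdown and 63715449 in the control, and the median exon with at least 10 reads had 178, 152 and 185 reads in that order. The 15 markers of sympathetic neuroblastoma cells, such as Phox2a and Hand2, all passed the minimum count, and summed to 4782 CPM in the Nacc1 knockdown, 4866 CPM in the Mbnl1/Mbnl2 knockdown and 5486 CPM in the control. Of this list only Th, tyrosine hydroxylase, passed the rule for genes, at 5.02 CPM in the Nacc1 knockdown, against 10.1 CPM in the Mbnl1/Mbnl2 knockdown and 7.59 CPM in the control. It passed narrowly, with a log2 fold change of -1.01. The second experiment ranged from 4.32 to 11.8 CPM for Th, which takes in the value of the Nacc1 knockdown. Glial markers summed to 7.75, 7.90 and 7.75 CPM and immune markers to 1.15, 1.57 and 0.573 CPM in the same order of libraries, with Aqp4 and Cd3e at 0 counts in all 3. Epithelial markers summed to 35.3, 40.6 and 38.5 CPM, with Krt5 at 0. Krt8 passed the rule, at 0.700 CPM in the Nacc1 knockdown, against 1.98 CPM in the Mbnl1/Mbnl2 knockdown and 1.24 CPM in the control. Mesenchymal markers summed to 1717, 2472 and 2417 CPM, with Col3a1 at 0, and most of that sum came from Vim and Fn1. Of them, Acta2 was higher and Pdgfrb lower, with Pdgfrb at 0.633 CPM in the Nacc1 knockdown, against 3.10 CPM in the Mbnl1/Mbnl2 knockdown and 2.00 CPM in the control. In bulk libraries fewer cells of a type and less RNA per cell cannot be told apart.

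Cassette exons were compared by percent spliced in (PSI), the share of reads that include the exon. An exon counted as different where both libraries had at least 20 reads, the PSI differed by at least 20 points and the 95% exact (Clopper-Pearson) intervals of the reads did not overlap. Of 16080 exons tested, 133 passed (0.827%), of which 60 were higher in the Nacc1 knockdown (0.373%) and 73 lower (0.454%). They lay in 128 genes, and 5 genes held more than 1 of them: Tacc2, Mst1, Crocc, Itpr1 and Bcas1. Another 111 exons were past 20 points with intervals that overlapped. Just inside the threshold stood exons of Map3k4 (-20.1 points) and Pbrm1 (20.1 points), and just outside it exons of Nrxn2 (-19.9 points) and Madd (-19.8 points). The same rule between the libraries of 1 group in the second experiment was passed by 0.320% of exons in the Srrm4 knockdown, 0.343% in the Zfp871 knockdown and 0.460% in that experiment's control. The share between the Nacc1 and Mbnl1/Mbnl2 knockdowns was above all 3 of these, though under 3 times the smallest. Of the 60 higher exons, 57 were measured in such a pair and 7 of them passed the rule there, which was 12.3% of the 57 and 4.79% of the 146 tested exons that passed in a pair. Of the 73 lower exons, 69 were measured and 3 passed, which was 4.35% of the 69 and 2.05% of the 146. Of all tested exons measured in a pair, 1.04% passed there, so exons of either direction also varied between libraries of 1 group more often than tested exons at large.

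Short exons made up more of the differences than of the tested exons. Among microexons, 3 to 27 nt long and typical of neuronal transcripts, 16 of 426 passed the rule (3.76%), of which 8 were higher in the Nacc1 knockdown and 8 lower. Among exons of 28 to 51 nt, 26 of 1216 passed (2.14%), with 13 in each direction. Among longer exons, 91 of 14438 passed (0.630%), with 39 higher and 52 lower. The share thus fell with exon length, and neither short class leaned to one direction. In the library pairs of the second experiment the share of microexons past the rule was 0% in the Srrm4 knockdown, 0.246% in the Zfp871 knockdown and 0.498% in the control, and that of exons of 28 to 51 nt was 0.692%, 0.349% and 0.520%. Longer exons passed in 0.297%, 0.345% and 0.453% of cases in the same pairs. The excess over the pairs was therefore larger for the short classes than for longer exons, as the plot of shares by exon length shows.

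**Figure D1:**
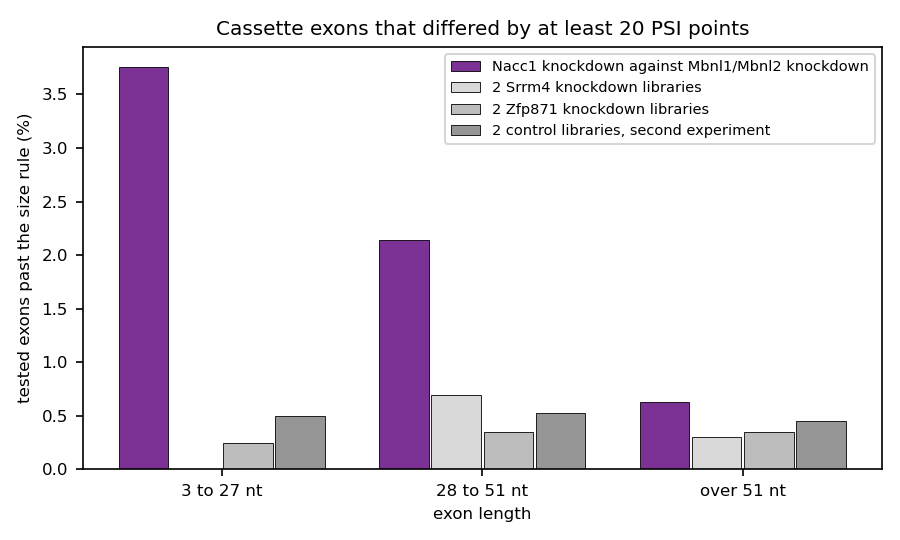
Share of tested cassette exons past the size rule (y axis, percent) by exon length (x axis), for the Nacc1 knockdown against the Mbnl1/Mbnl2 knockdown (purple) and, in grey, for the 2 libraries of each group of the second experiment against each other. The purple bars step down from 3.76% for microexons to 2.14% and 0.630%, and no grey bar reaches 0.7%.

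Lengths divisible by 3 made up more of the exons that differed than of tested exons. Of the 133 exons, 80 had a length divisible by 3 (60.2%), against 40.1% of all tested exons. In the library pairs the exons past the rule were divisible by 3 in 46.8%, 33.3% and 47.1% of cases. The split by frame was wide in exons of 28 to 51 nt, where 3.64% of the 604 divisible by 3 passed and 0.654% of the 612 others. Among microexons 14 of the 16 were divisible by 3, but so were 77.5% of the 426 tested. Of exons over 51 nt, 29 of the 52 lower ones were divisible by 3 (55.8%), against 38.1% of those tested. The higher ones showed no such excess, with 15 of 39 (38.5%). The share over all 133 exons also reflects that short exons, more often divisible by 3, made up more of them. Whether an exon keeps a reading frame was not tested, and some of them lie outside coding sequence.

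The control library placed the exons on different sides by direction. Of the 73 exons lower in the Nacc1 knockdown, the control PSI lay within 10 points of the Mbnl1/Mbnl2 knockdown for 41 and within 10 points of the Nacc1 knockdown for 13, between the knockdowns and near neither for 12, and outside both for 7. Of the 60 exons higher in the Nacc1 knockdown, the control lay near the Nacc1 knockdown for 22, near the Mbnl1/Mbnl2 knockdown for 15, between for 8 and outside both for 15. Most of the exons lower in the Nacc1 knockdown were thus ones in which that library stood apart, while the higher exons held both kinds.

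In a group of exons with at least 50 reads in both libraries, the Nacc1 knockdown had low inclusion and stood apart from the other two libraries of its experiment. A 48-nt exon of Uap1, which makes UDP-N-acetylglucosamine for protein glycosylation, had a PSI of 28.1% (24 to 32.5%; 447 reads) in the Nacc1 knockdown, against 88.5% (85.6 to 91.1%; 543 reads) in the Mbnl1/Mbnl2 knockdown and 86.5% in the control. A 129-nt exon of Tsc2, whose product tuberin restrains mTORC1, had 38.9% (31.3 to 47.0%) in the Nacc1 knockdown, against 85.5% (78.6 to 90.9%) in the Mbnl1/Mbnl2 knockdown and 86.2% in the control. An 84-nt exon of Golim4, a Golgi membrane protein, had 24.2% (17.6 to 31.7%) in the Nacc1 knockdown, against 67.9% (62.3 to 73.2%) in the Mbnl1/Mbnl2 knockdown and 71.2% in the control. In each of these the Mbnl1/Mbnl2 knockdown and the control lay together, and the 6 libraries of the second experiment also stood high, with 71.5 to 82.7% for Uap1, 72.4 to 89.2% for Tsc2 and 61.9 to 77.4% for Golim4. A 298-nt exon of Fam126a, which encodes hyccin, had 10.4% (6.19 to 16.0%) in the Nacc1 knockdown, against 55.2% (48.0 to 62.3%) in the Mbnl1/Mbnl2 knockdown and 51% in the control. For 1700012B15Rik, a 176-nt exon had 32.5% in the Nacc1 knockdown, against 77.8% in the Mbnl1/Mbnl2 knockdown and 87.0% in the control, on 55, 64 and 86 reads. The Fam126a exon varied widely in the second experiment, at 29.9 to 63.3%, yet never as low as in the Nacc1 knockdown.

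The sequences of the coding exons among these are given on the sense strand, since they are the exons in which the Nacc1 knockdown stood apart. Any YGCY match (TGCT or TGCC, and likewise with C in first place CGCT or CGCC) is in capitals. The search used the sense strand only, and matches that share letters were each counted. The sequences were read from GENCODE M21 transcripts of GRCm38, matched by exon length and the lengths of both flanking introns. The coordinates are the deposited ones in mm9.
Uap1, chr1:172078127-172078174, minus strand: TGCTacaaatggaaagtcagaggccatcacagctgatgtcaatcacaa
Tsc2, chr17:24743169-24743297, minus strand: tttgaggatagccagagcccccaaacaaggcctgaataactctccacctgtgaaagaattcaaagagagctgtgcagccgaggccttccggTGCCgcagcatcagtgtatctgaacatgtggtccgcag
Golim4, chr3:75706323-75706406, minus strand: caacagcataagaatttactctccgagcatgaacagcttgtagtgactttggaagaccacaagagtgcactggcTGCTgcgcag
Each of these 3 exons held 1 match.

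Exons in which the Mbnl1/Mbnl2 knockdown stood apart ran in both directions. A 21-nt exon of Tmem184b, a transmembrane protein, had a PSI of 30.7% (24.3 to 37.7%) in the Nacc1 knockdown, against 68.1% (60.4 to 75.1%) in the Mbnl1/Mbnl2 knockdown and 29.4% in the control. This exon was included more where Mbnl1 and Mbnl2 were lowered. In the other direction, a 138-nt exon of Dtx2, a Deltex-type ubiquitin ligase of Notch signalling, had 50.9% (39.5 to 62.3%) in the Nacc1 knockdown, against 12.2% (4.95 to 23.9%) in the Mbnl1/Mbnl2 knockdown and 54.0% in the control. For the 2061-nt exon of Prrc2b the PSI was 48.9% (45.6 to 52.2%) in the Nacc1 knockdown, against 18.9% (16.1 to 22%) in the Mbnl1/Mbnl2 knockdown and 43.2% in the control. The most deeply read of the named exons was a 60-nt exon of Spna2, alpha II spectrin, with 1601 reads and 64.1% (61.7 to 66.5%) in the Nacc1 knockdown, against 1395 reads and 39.3% (36.7 to 41.9%) in the Mbnl1/Mbnl2 knockdown, and 69.2% in the control. Its 6 libraries in the second experiment lay at 67.6 to 73.9%, so the Mbnl1/Mbnl2 knockdown was below all other libraries. A 78-nt exon of Cables1, which links cyclin-dependent kinases to Abl, had 49.6% in the Nacc1 knockdown, against 18.3% in the Mbnl1/Mbnl2 knockdown and 51.1% in the control. A 30-nt exon of Arhgef11, an exchange factor of small GTPases, had 52.3% in the Nacc1 knockdown, against 23.9% in the Mbnl1/Mbnl2 knockdown and 43.6% in the control. A 29-nt exon of 2210408F21Rik had 86.7% in the Nacc1 knockdown, against 57.0% in the Mbnl1/Mbnl2 knockdown and 79.4% in the control, but ranged from 44.8 to 78.8% in the second experiment. That range is wider than the difference between the knockdowns. The Prrc2b exon also ranged from 25.2 to 40.4% there, and the libraries of each group differed by 9 points or more.

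Of the coding exons of this kind that could be matched, 4 are shown in the same way, because they mark the Mbnl1/Mbnl2 knockdown and can be read for the motif its proteins bind.
Tmem184b, chr15:79194088-79194108, minus strand: TGCTgacgtacggcccatacg
Dtx2, chr5:136502340-136502477, plus strand: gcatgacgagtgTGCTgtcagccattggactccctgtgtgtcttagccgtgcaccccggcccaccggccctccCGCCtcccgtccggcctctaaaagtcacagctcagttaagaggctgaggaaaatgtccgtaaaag
Spna2, chr2:29856620-29856679, plus strand: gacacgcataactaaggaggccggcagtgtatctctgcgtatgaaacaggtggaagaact
Arhgef11, chr3:87522151-87522180, plus strand: catttcatattcccttgtcccctgtggaag
Tmem184b held 1 match and Dtx2 held 2, and Spna2 and Arhgef11 held none within the exon. Among those not shown, Cables1 held 2 and the long Prrc2b exon 27.

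A group of exons had the control outside both knockdowns. An 18-nt exon of Dst, dystonin, a linker of cytoskeletal filaments, had a PSI of 56.8% (50.1 to 63.4%) in the Nacc1 knockdown, against 10.2% (6.19 to 15.6%) in the Mbnl1/Mbnl2 knockdown and 92.3% (87.2 to 95.8%) in the control. A 21-nt exon of Pcnt, pericentrin of the centrosome, had 70.2% (60.5 to 78.8%) in the Nacc1 knockdown, against 36.1% (25.5 to 47.9%) in the Mbnl1/Mbnl2 knockdown and 94.2% in the control. A 27-nt exon of Baz2b, a bromodomain protein, had 76.2% (68.1 to 83.1%) in the Nacc1 knockdown, against 47.6% (37.8 to 57.5%) in the Mbnl1/Mbnl2 knockdown and 95.9% in the control. In all 3 exons both knockdowns lay below the control, the Mbnl1/Mbnl2 knockdown further, and the second experiment stood with the control, at 84.6 to 91.4% for Dst, 89.7 to 97.8% for Pcnt and 93.3 to 100% for Baz2b. The same order held for a 12-nt exon of Ank2, ankyrin B, at 27.5% (19.4 to 36.8%) in the Nacc1 knockdown, against 3.87% (1.17 to 9.18%) in the Mbnl1/Mbnl2 knockdown and 57.3% in the control. A 27-nt exon of Kifc3, a minus-end kinesin, had 57.1% (48.9 to 65.0%) in the Nacc1 knockdown, against 33.8% (25.3 to 43.0%) in the Mbnl1/Mbnl2 knockdown and 86.6% in the control. A 48-nt exon of St3gal3, a sialyltransferase, had 66.7% in the Nacc1 knockdown, against 38.1% in the Mbnl1/Mbnl2 knockdown and 89.0% in the control. Bcas1, known from myelin, had 70.6% for a 165-nt exon in the Nacc1 knockdown, against 34.3% in the Mbnl1/Mbnl2 knockdown and 83.6% in the control. Of the 8 microexons higher in the Nacc1 knockdown, Dst, Pcnt, Baz2b, Ank2 and Kifc3 thus shared 1 order of the 3 libraries.

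The opposite order, with the control lowest, was seen in 3 named exons. A 9-nt exon of Tacc2, a coiled-coil protein of centrosomes, had a PSI of 23.6% (18.6 to 29.2%) in the Nacc1 knockdown, against 68.3% (61.9 to 74.2%) in the Mbnl1/Mbnl2 knockdown and 10.0% in the control. A 13-nt exon of Dclk2, a doublecortin-like kinase, had 24.7% (16.9 to 33.8%) in the Nacc1 knockdown, against 69.2% (56.2 to 80.3%) in the Mbnl1/Mbnl2 knockdown and 7.76% in the control. A 63-nt exon of Dgki, a diacylglycerol kinase, had 37.8% (28.8 to 47.4%) in the Nacc1 knockdown, against 72.2% (64.6 to 79.0%) in the Mbnl1/Mbnl2 knockdown and 21.1% in the control. Both knockdowns included these exons more than the control, the Mbnl1/Mbnl2 knockdown most.

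Other short exons had the control between the knockdowns or nearer to 1 of them. A 21-nt exon of Mast2, a microtubule-associated kinase, had a PSI of 27.8% (21.0 to 35.5%) in the Nacc1 knockdown, against 69.6% (62.5 to 76.1%) in the Mbnl1/Mbnl2 knockdown and 58.3% in the control. A 24-nt exon of Mef2a, a transcription factor of muscle and neurons, had 11.4% (7.15 to 17.0%) in the Nacc1 knockdown, against 45.6% (38.5 to 52.9%) in the Mbnl1/Mbnl2 knockdown and 24.2% in the control. A 45-nt exon of Sh3pxd2a, a scaffold of podosomes, had 36.2% in the Nacc1 knockdown, against 74.4% in the Mbnl1/Mbnl2 knockdown and 47.7% in the control. Mast2, Mef2a and Sh3pxd2a also varied between the groups of the second experiment. Mast2 had 16.3 and 19% with Srrm4 lowered and 22.5 and 23.5% with Zfp871 lowered, against 50 and 61.9% in that control. Sh3pxd2a had 37.1 and 33.3% with Srrm4 lowered and 34.9 and 39.3% with Zfp871 lowered, against 65.6 and 58.4% in that control. For Mef2a the values were 6.91 and 5.54% with Srrm4 lowered and 11.5 and 8.22% with Zfp871 lowered, against 23.6 and 19.6% in the control. A 51-nt exon of Mical3, an actin-regulating monooxygenase, had 23.7% in the Nacc1 knockdown, against 63.2% in the Mbnl1/Mbnl2 knockdown and 50.6% in the control, with 60, 71 and 67 reads. In Itpr1, the IP3 receptor, a 36-nt exon had 54.9% in the Nacc1 knockdown, against 22.5% in the Mbnl1/Mbnl2 knockdown and 17.8% in the control. A 108-nt exon of Zfp238, a transcriptional repressor, had 54.1% in the Nacc1 knockdown, against 24.1% in the Mbnl1/Mbnl2 knockdown and 24.7% in the control. Itpr1 and Zfp238 were the cases among the 12 largest higher exons in which the Nacc1 knockdown stood apart with high inclusion, though the control libraries a and b of the second experiment had 20 and 45.3% for Zfp238. The largest differences of all in the higher direction lay outside the 50-read minimum for naming and are given as chosen after their values were seen. A 3-nt exon of Cyth1, an Arf exchange factor, had 86.2% (73.0 to 94.5%; 47 reads) in the Nacc1 knockdown, against 25.7% (14.4 to 40.0%; 50 reads) in the Mbnl1/Mbnl2 knockdown and 86.0% in the control. A 26-nt exon of Ccdc66 had 79.2% in the Nacc1 knockdown, against 21.9% in the Mbnl1/Mbnl2 knockdown and 67.0% in the control, on 36, 30 and 32 reads.

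**Figure D2:**
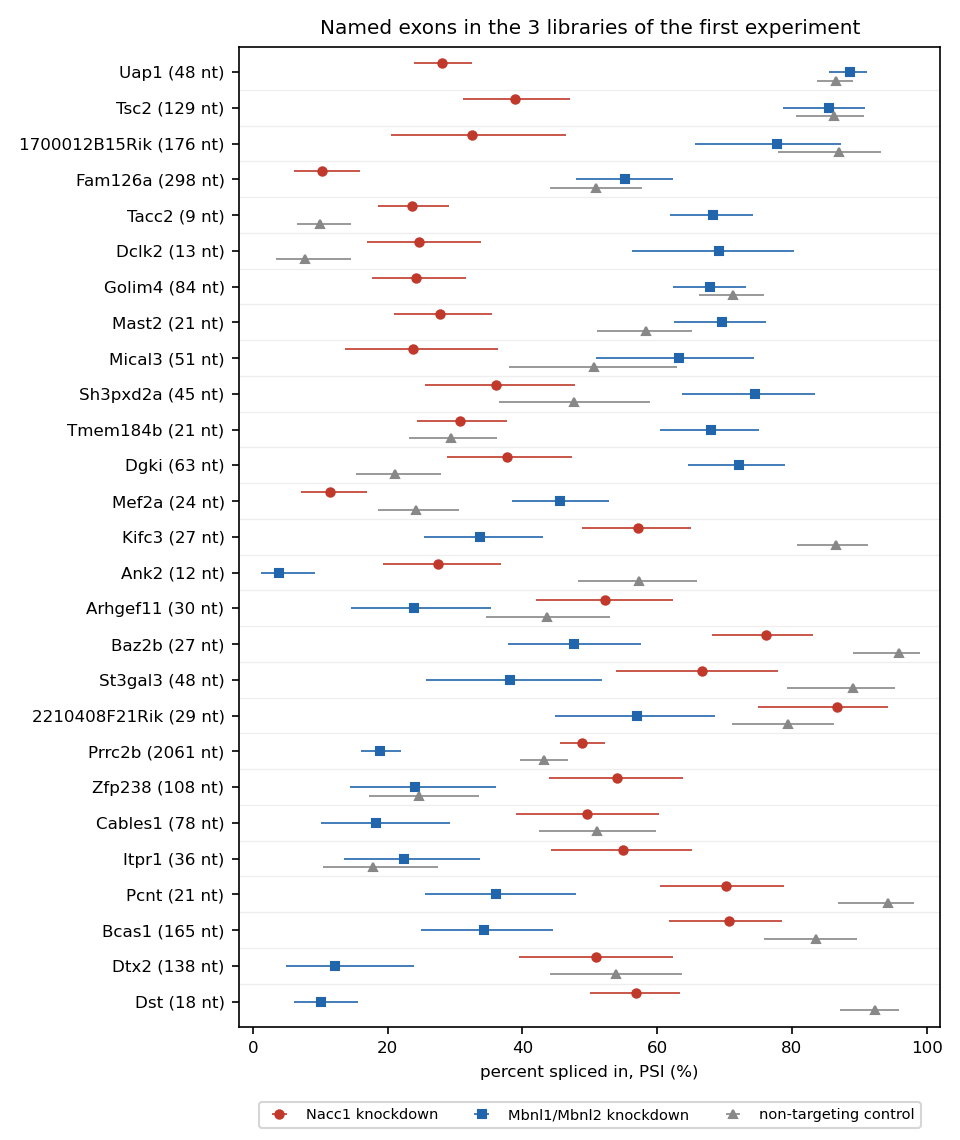
PSI (x axis, percent) of the named cassette exons, 1 row an exon, in the Nacc1 knockdown (red circles), the Mbnl1/Mbnl2 knockdown (blue squares) and the non-targeting control (grey triangles) of the first experiment. Lines are 95% exact intervals of the reads of 1 library. The red and blue intervals are apart in every row because the rule requires it. Rows run from Uap1 (28.1% and 88.5%) at the top to Dst (56.8% and 10.2%) at the bottom.

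The matched coding exons among the named ones of the last 3 groups are shown whole, so that their sequences can be compared.
Dst, chr1:34353587-34353604, plus strand: ttcttcctgggaaatcag
Pcnt, chr10:75866369-75866389, minus strand: tgcgtccagttagacgaggag
Baz2b, chr2:59771469-59771495, minus strand: gagttggagaggcatagactagatatg
Ank2, chr3:126682174-126682185, minus strand: taccatccccag
St3gal3, chr4:117727255-117727302, minus strand: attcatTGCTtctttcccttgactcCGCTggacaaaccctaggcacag
Dgki, chr6:36944859-36944921, minus strand: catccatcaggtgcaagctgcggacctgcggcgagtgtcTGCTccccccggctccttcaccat
Mast2, chr4:116006018-116006038, minus strand: ccatggccacagaacagacag
Mef2a, chr7:74389407-74389430, minus strand: tcggaggaagaggaattggagttg
Sh3pxd2a, chr19:47394766-47394810, minus strand: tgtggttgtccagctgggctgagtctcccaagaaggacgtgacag
St3gal3 held 2 YGCY matches and Dgki 1, and the other 7 exons, which include all 6 microexons, held none. Of the matched microexons past the rule, 0 of 7 higher and 1 of 7 lower (Tmem184b) held a match, against 48 of 292 tested microexons (16.4%). Among exons of 28 to 51 nt, 4 of 8 higher and 6 of 12 lower held a match, against 39.3% of 858 tested. Among exons of 52 to 150 nt, 16 of 22 higher and 24 of 33 lower held a match (72.7% each), against 71.1% of 7440 tested. Over all lengths there were 1.70 matches per 100 nt in the higher and 1.98 in the lower exons, against 1.55 in tested exons, and these differences were not tested. The flanking introns were not analysed here, so the counts say only whether these letters are in the exon. A matching exon was found in GENCODE transcripts for 42 of the 60 higher exons, 62 of the 73 lower exons and 71.9% of the tested exons, and the matched exon lay within coding sequence for 31, 48 and 80.7% of the matched exons.

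Host genes known for Mbnl-regulated exons held 126 tested exons in 26 genes, of which 3 were higher in the Nacc1 knockdown and 2 lower (3.97%, against 0.827% of all tested exons). Dst, Ank2 and Spna2 were among the higher and Ryr1 among the lower. The 65-nt exon of Ryr1, a calcium release channel, had a PSI of 60.0% (46.0 to 72.9%) in the Nacc1 knockdown, against 95.9% (85.9 to 99.5%) in the Mbnl1/Mbnl2 knockdown and 92.7% in the control, so the Nacc1 knockdown stood apart in it. Host genes of neural microexons held 183 tested exons in 37 genes, of which 3 were higher and 4 lower (3.83%). The higher ones lay in Ank2, Nbea and Rims2 and the lower ones included Mef2a, Ptprs and Phf21a. A 9-nt exon of Nbea, neurobeachin of synaptic membrane traffic, had 91.5% (84.6 to 96.0%) in the Nacc1 knockdown, against 71.2% (61.6 to 79.6%) in the Mbnl1/Mbnl2 knockdown and 88.6% in the control. In the second experiment the Nbea exon had 65.5 to 75.1% with Srrm4 or Zfp871 lowered, against 86.1 and 90.8% in that control. A 252-nt exon of Rims2, a protein of the presynaptic active zone, had 38.9% (33.0 to 45.0%) in the Nacc1 knockdown, against 13.1% (8.71 to 18.7%) in the Mbnl1/Mbnl2 knockdown and 15.3% in the control. Phf21a, a subunit of the LSD1 and CoREST complex, included a 61-nt exon at 78.7% (72.1 to 84.3%) in the Nacc1 knockdown, against 100% in both the Mbnl1/Mbnl2 knockdown and the control. The second experiment had at least 98.7% for that exon in each library, so the Nacc1 knockdown was below all other libraries. A 115-nt exon of Ptprs, a receptor phosphatase, had 68.0% in the Nacc1 knockdown, against 92.9% in the Mbnl1/Mbnl2 knockdown and 84.9% in the control, on 42, 54 and 71 reads. It ranged from 35.9 to 83.3% in the second experiment, a wider span than the difference here.
Phf21a, chr2:92189545-92189605, plus strand: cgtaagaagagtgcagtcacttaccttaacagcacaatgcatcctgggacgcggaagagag
Nbea, chr3:55797970-55797978, minus strand: ggttctaag
Ryr1, chr7:29789802-29789866, minus strand: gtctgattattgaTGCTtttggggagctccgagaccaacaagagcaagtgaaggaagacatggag
These 3 coding exons are shown because they come from the lists of known regulated hosts, and the capitals again mark YGCY.

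Retained introns and alternative splice sites differed no more often than in the library pair with the highest share. Of 40031 introns tested, 176 were past 20 points higher in the Nacc1 knockdown (0.44%) and 125 lower (0.312%), or 0.752% together, against 0.624%, 0.674% and 1.02% in the 3 library pairs. The pairs had only 17301, 16471 and 21193 introns tested, so these shares come from unlike sets of introns. Read numbers of introns were also not all whole, as with 58.33 for the Bahcc1 intron below in the Nacc1 knockdown. The minimum of 20 may therefore not count separate reads. Acceptor events passed in 35 of 5278 cases (0.663%), 15 higher (0.284%) and 20 lower (0.379%), against 0.693 to 0.878% in the pairs. Donor events passed in 50 of 3889 cases (1.29%), 27 higher (0.694%) and 23 lower (0.591%), against 0.988 to 1.41% in the pairs. The named events are therefore values of these libraries without an excess over all pairs behind them, given as the authors' deposited PSI. An 82-nt intron of Nacc1 itself (chr8:87200158-87200239, mm9) had 49.5% retention in the Nacc1 knockdown, against 11.3% in the Mbnl1/Mbnl2 knockdown and 11.9% in the control, and 2.57 to 6.71% in the second experiment. It was read 74 times in the Nacc1 knockdown, where the gene is low, against 221 times in the Mbnl1/Mbnl2 knockdown. A 607-nt intron of Bahcc1 had 11.1% in the Nacc1 knockdown, against 54.3% in the Mbnl1/Mbnl2 knockdown and 14.3% in the control. Retention of introns in Camsap1, a protein of microtubule minus ends, and in Trim11, a ubiquitin ligase, was 42.2 and 35.6% in the Nacc1 knockdown, against 80.2 and 69.9% in the Mbnl1/Mbnl2 knockdown. The control had 67.2 and 59.4%. Measured libraries of the second experiment had 32.3 to 61.4% for Camsap1, around the Nacc1 knockdown, and 15.0 to 33.7% for Trim11. Introns of Tcea2 and Mll1 had 100 and 66.7% in the Nacc1 knockdown, against 63.6 and 31.2% in the Mbnl1/Mbnl2 knockdown and 66.7 and 33.3% in the control. Measured libraries of the second experiment lay below all of these, at 14.3 to 42.9% for Tcea2 and 0 to 18.2% for Mll1. Use of a donor of Eps15, an endocytic adaptor, that adds 108 nt was 15.8% in the Nacc1 knockdown, against 59.1% in the Mbnl1/Mbnl2 knockdown and 52% in the control, and 36.3 to 53.2% in the second experiment. A donor of Add1, the membrane skeleton protein adducin, that adds 93 nt was used at 18.8% in the Nacc1 knockdown, against 46.0% in the Mbnl1/Mbnl2 knockdown and 22.9% in the control. These donors show again 1 event in which the Nacc1 knockdown and 1 in which the Mbnl1/Mbnl2 knockdown stood apart. Among acceptors, the shortest form of an event in Rpl22, a ribosomal protein, was used at 55.2% in the Nacc1 knockdown, against 19.5% in the Mbnl1/Mbnl2 knockdown and 23.2% in the control, and the longer form of an event in Tsc1, the partner of Tsc2, at 63.8% in the Nacc1 knockdown, against 85.9% in the Mbnl1/Mbnl2 knockdown and 77.3% in the control.

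Gene expression differed mostly in 1 direction. A gene counted as different with at least 50 counts in either library and a log2 fold change (TMM factors, prior count 2) of at least 1 in size. Of 11586 genes tested, 548 passed (4.73%), of which 59 were higher in the Nacc1 knockdown (0.509%) and 489 lower (4.22%). Library pairs of 1 group in the second experiment passed the same rule in 2.91% of genes in the Srrm4 knockdown, 1.52% in the Zfp871 knockdown and 3.20% in the control. These pairs were also uneven, with 279 genes higher and 47 lower in library a of the Srrm4 knockdown. Of the 489 lower genes, 418 could be measured in such a pair and 147 of them passed the rule in at least 1 pair, which was 35.2% of the 418 and 29.6% of the 497 tested genes that passed in a pair. By contrast 4.42% of all tested genes did so. Many of the lower genes were therefore ones whose level also varied between libraries of a single group. Of the 59 higher genes, 8 of 47 measured in a pair passed there (17.0%).

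The lower genes were also lowly expressed and rich in G and C. Their median count over both libraries was 196, against 2133 for all tested genes and 461 for the higher genes. With at least 1000 counts in either library, 114 genes were lower and 24 higher. The median GC content of the longest GENCODE transcript was 55.0% for the lower genes, 48.4% for the higher genes and 49.9% for all tested genes. With genes split by GC content into 4 bins of equal size, the share of lower genes was 0.979%, 2.31%, 4.76% and 8.92%, going up the bins. The part of GC content in the result was not tested. The control lay within 0.5 on the log2 scale of the Mbnl1/Mbnl2 knockdown for 272 of the 489 lower genes and of the Nacc1 knockdown for 78. For the 59 higher genes, it lay near the Mbnl1/Mbnl2 knockdown for 27 and near the Nacc1 knockdown for 18. Of 125 tested host genes of the exons above, 0 were higher in the Nacc1 knockdown and 1, Dnahc1, was lower, against 0.509% and 4.22% of all tested genes. These hosts had at least 20 reads on an exon in both libraries, whereas the lower genes were mostly lowly expressed. The shares of all tested genes are therefore not matched to the hosts in expression.

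**Figure D3:**
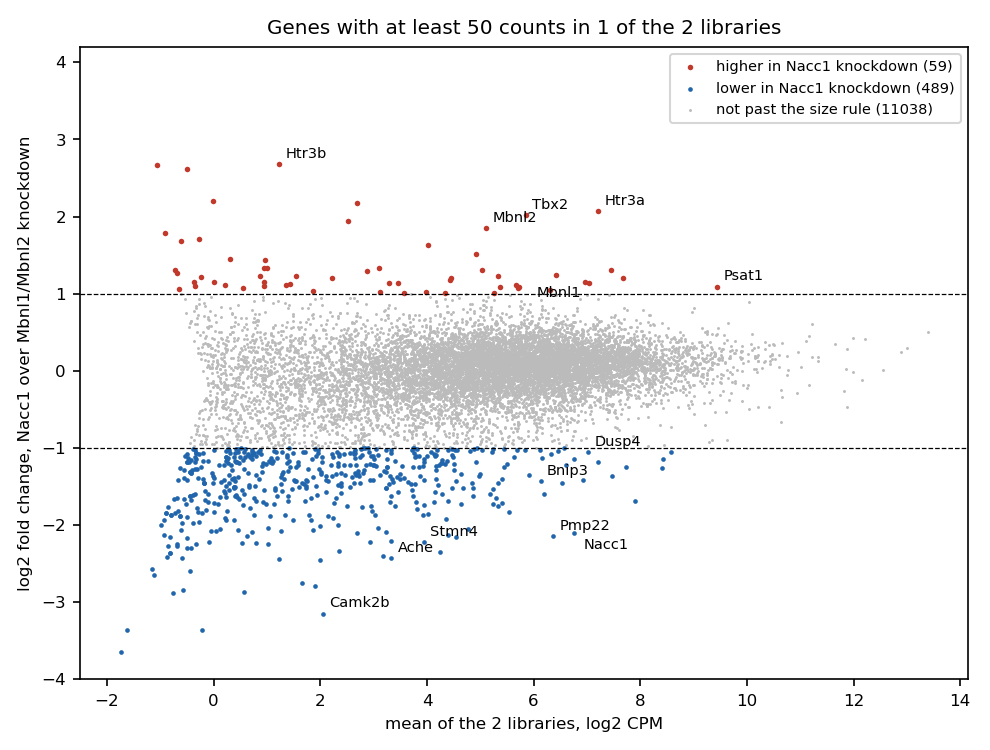
Log2 fold change of the Nacc1 knockdown over the Mbnl1/Mbnl2 knockdown (y axis) against the mean log2 CPM of both libraries (x axis) for 11586 genes, each a point. The 489 lower genes (blue) outnumber the 59 higher genes (red) and crowd at low expression; dashed lines mark log2 fold changes of 1 and -1.

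Of the 12 lower genes whose difference was firmest by counting error, those with a known role in neurons, myelin or the cytoskeleton are given first. Camk2b, a calcium and calmodulin dependent kinase of synapses, stood at 1.35 CPM (95% exact Poisson interval 1.07 to 1.68) in the Nacc1 knockdown, against 12.3 CPM (11.3 to 13.3) in the Mbnl1/Mbnl2 knockdown and 4.09 CPM in the control, a log2 fold change of -3.15. Ache, acetylcholinesterase, stood at 4.30 CPM in the Nacc1 knockdown, against 23.3 CPM in the Mbnl1/Mbnl2 knockdown and 18.1 CPM in the control (-2.43). Stmn4, a stathmin that binds tubulin in neurons, stood at 7.10 CPM in the Nacc1 knockdown, against 33.3 CPM in the Mbnl1/Mbnl2 knockdown and 29.2 CPM in the control (-2.22). Camk2b had the control between the knockdowns, and in Ache and Stmn4 the Nacc1 knockdown stood apart. The second experiment had 1.39 to 3.81 CPM for Camk2b, near the Nacc1 knockdown at its low end. The Mbnl1/Mbnl2 knockdown was thus above all other libraries for that gene. Pmp22, a protein of myelin and of cell junctions, stood at 39.2 CPM (37.7 to 40.8) in the Nacc1 knockdown, against 174 CPM (170 to 178) in the Mbnl1/Mbnl2 knockdown and 137 CPM in the control (-2.15). Its 6 libraries in the second experiment ranged from 88.3 to 180 CPM. Gsn, the actin-severing gelsolin, stood at 8.38 CPM in the Nacc1 knockdown, against 42.9 CPM in the Mbnl1/Mbnl2 knockdown and 22.4 CPM in the control (-2.35). Pmp22 and Gsn were thus low in the Nacc1 knockdown with the control nearer to the Mbnl1/Mbnl2 knockdown or between. For Gsn, however, the second experiment ranged from 9.12 to 30.3 CPM, with its low end close to the Nacc1 knockdown.

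Lower genes with weaker expression included Sstr3, a somatostatin receptor, at 0.516 CPM in the Nacc1 knockdown, against 4.01 CPM in the Mbnl1/Mbnl2 knockdown and 1.42 CPM in the control. Car6, a secreted carbonic anhydrase, stood at 1.38 CPM in the Nacc1 knockdown, against 9.80 CPM in the Mbnl1/Mbnl2 knockdown and 3.93 CPM in the control. Cygb, cytoglobin, stood at 1.18 CPM in the Nacc1 knockdown, against 8.16 CPM in the Mbnl1/Mbnl2 knockdown and 4.82 CPM in the control. In all 3 the control lay between the knockdowns. Sstr3 had 0.283 to 1.11 CPM in the second experiment, so the Mbnl1/Mbnl2 knockdown was above all other libraries and the Nacc1 knockdown was not the lowest. Padi3, a peptidylarginine deiminase, stood at 1.67 CPM in the Nacc1 knockdown, against 9.32 CPM in the Mbnl1/Mbnl2 knockdown and 4.18 CPM in the control. The second experiment ranged from 1.73 to 8.50 CPM for Padi3, which spans most of that difference. Cpne5, a calcium-dependent phospholipid-binding copine, stood at 0.966 CPM in the Nacc1 knockdown, against 5.41 CPM in the Mbnl1/Mbnl2 knockdown and 1.49 CPM in the control. With 0.997 to 2.03 CPM for Cpne5 in the second experiment, the Mbnl1/Mbnl2 knockdown was the library far from the rest. Ndrg2 stood at 2.23 CPM in the Nacc1 knockdown, against 11.5 CPM in the Mbnl1/Mbnl2 knockdown and 11.3 CPM in the control (log2 fold change -2.34). Ndrg2 also differed between libraries of 1 group, with 22.2 and 1.38 CPM in the libraries a and b of the Srrm4 knockdown.

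The 12 higher genes firmest by counting error, among those with at least 200 counts, included both subunits of a serotonin receptor. Htr3a, subunit A of the 5-HT3 receptor, a ligand-gated cation channel, stood at 303 CPM (299 to 307) in the Nacc1 knockdown, against 72.3 CPM (70.0 to 74.6) in the Mbnl1/Mbnl2 knockdown and 135 CPM in the control, a log2 fold change of 2.07. Htr3b, subunit B, stood at 5.90 CPM (5.30 to 6.55) in the Nacc1 knockdown, against 0.891 CPM (0.652 to 1.19) in the Mbnl1/Mbnl2 knockdown and 1.00 CPM in the control (2.68). Both were highest in the Nacc1 knockdown. Across the second experiment Htr3a ranged from 90.8 to 175 CPM and Htr3b from 0.361 to 2.05 CPM, below the Nacc1 knockdown in every library. Tbx2, a T-box repressor, stood at 117 CPM (114 to 120) in the Nacc1 knockdown, against 28.9 CPM (27.4 to 30.4) in the Mbnl1/Mbnl2 knockdown and 60.9 CPM in the control (2.02). Flrt3, an adhesion and axon guidance protein, stood at 11.2 CPM in the Nacc1 knockdown, against 2.89 CPM in the Mbnl1/Mbnl2 knockdown and 4.72 CPM in the control (1.94). Il17rd, an inhibitor of FGF signalling, stood at 51.3 CPM in the Nacc1 knockdown, against 18 CPM in the Mbnl1/Mbnl2 knockdown and 25.7 CPM in the control (1.51). Tbx2, Flrt3 and Il17rd, like Htr3a, had the control between the knockdowns.

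Higher genes in which the Nacc1 knockdown stood apart included Dok4, an adaptor of receptor tyrosine kinases, at 275 CPM in the Nacc1 knockdown, against 111 CPM in the Mbnl1/Mbnl2 knockdown and 128 CPM in the control (log2 fold change 1.30). Igfbp5, a binding protein of insulin-like growth factors, stood at 28.7 CPM in the Nacc1 knockdown, against 9.20 CPM in the Mbnl1/Mbnl2 knockdown and 12.9 CPM in the control (1.64). Msl3l2, at 13.7 CPM in the Nacc1 knockdown, against 3 CPM in the Mbnl1/Mbnl2 knockdown and 3.99 CPM in the control, is uncertain because its reads may be shared with its relative Msl3. In others the Mbnl1/Mbnl2 knockdown was the low one and the Nacc1 knockdown lay near the control. Chchd3, a subunit of the mitochondrial MICOS complex, stood at 131 CPM in the Nacc1 knockdown, against 55.7 CPM in the Mbnl1/Mbnl2 knockdown and 133 CPM in the control (1.24). Pdap1, a protein associated with platelet-derived growth factor A, stood at 311 CPM in the Nacc1 knockdown, against 135 CPM in the Mbnl1/Mbnl2 knockdown and 292 CPM in the control (1.20). Ccng1, cyclin G1, stood at 51.3 CPM in the Nacc1 knockdown, against 20.7 CPM in the Mbnl1/Mbnl2 knockdown and 42.5 CPM in the control (1.31). The second experiment ranged narrowly for Chchd3, from 122 to 139 CPM, so the Mbnl1/Mbnl2 knockdown was below all other libraries for that gene. Ccng1 had 29.0 and 27.7 CPM with Srrm4 lowered and 19.6 and 13.1 CPM with Zfp871 lowered, against 47.4 and 41.4 CPM in that control. Low Ccng1 was thus not particular to the Mbnl1/Mbnl2 knockdown. Whether other sequences matched by the siRNA pools had a part in any of these values was not tested.

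**Figure D4:**
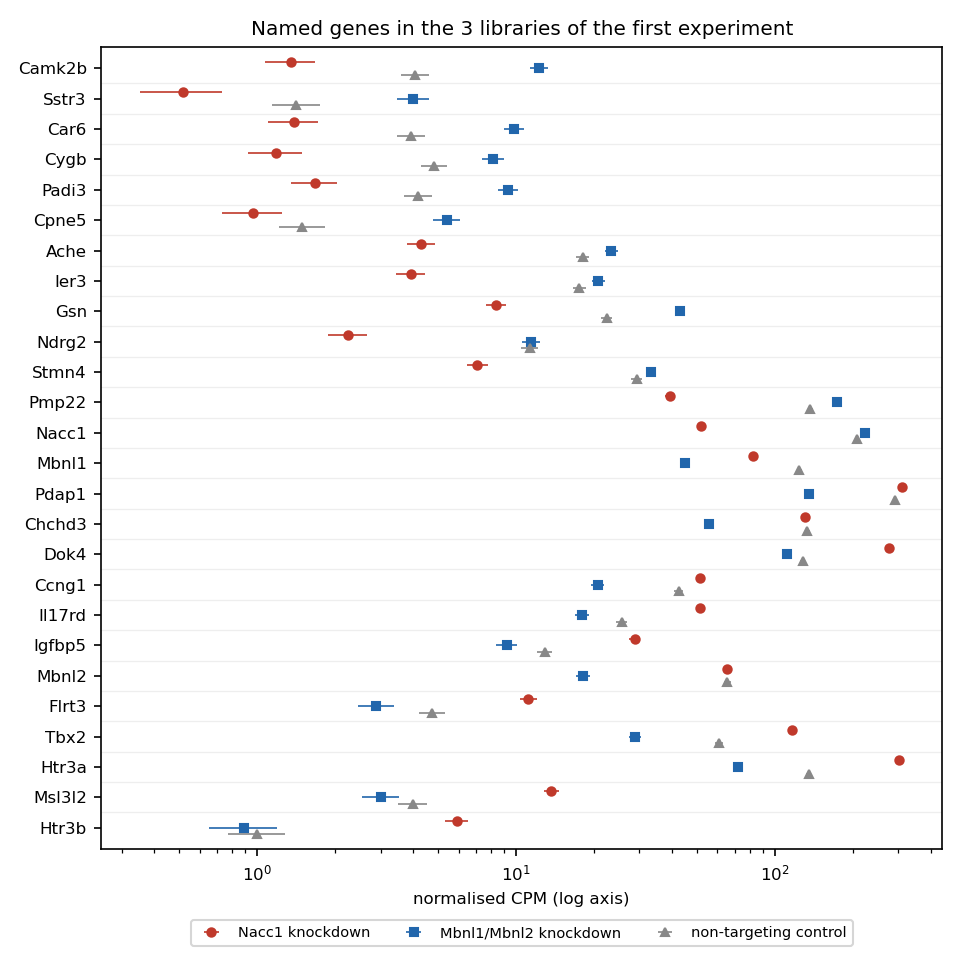
Normalised CPM (x axis, log scale) of the targeted genes and of the 12 genes in each direction with the firmest difference, in the Nacc1 knockdown (red circles), the Mbnl1/Mbnl2 knockdown (blue squares) and the non-targeting control (grey triangles). Lines are 95% exact Poisson intervals of 1 library, from Camk2b at the top (1.35 and 12.3 CPM) to Htr3b at the bottom (5.90 and 0.891 CPM).

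Gene lists are set against all tested genes, of which 0.509% were higher and 4.22% lower in the Nacc1 knockdown, with a median log2 fold change of 0.03. Of 41 neuronal genes, 0 were higher and 6 lower (14.6%, against 4.73% of all tested genes past the rule), with a median of -0.35. Eno2, given below with glycolysis, was 1 of these 6. It varied widely between libraries of 1 group, with 125 and 29.4 CPM in the libraries a and b of the Srrm4 knockdown. Beside Stmn4, Cplx2, complexin of synaptic vesicle release, stood at 48.4 CPM in the Nacc1 knockdown, against 106 CPM in the Mbnl1/Mbnl2 knockdown and 96.7 CPM in the control. Syn1, synapsin, stood at 36.0 CPM in the Nacc1 knockdown, against 73.2 CPM in the Mbnl1/Mbnl2 knockdown and 65.6 CPM in the control. Grin1, the obligatory NMDA receptor subunit, stood at 12.3 CPM in the Nacc1 knockdown, against 26.3 CPM in the Mbnl1/Mbnl2 knockdown and 27.5 CPM in the control. In all 3 the control lay near the Mbnl1/Mbnl2 knockdown. In the second experiment Cplx2 was lower still with Srrm4 lowered, at 35.4 and 27.4 CPM, against 105.6 and 91.7 CPM in that control. Grin1 had 10.1 and 5.25 CPM with Srrm4 lowered and 12.1 and 12.8 CPM with Zfp871 lowered, against 23.4 and 16.0 CPM in that control. Low Cplx2 and Grin1 were thus not particular to the Nacc1 knockdown. Dcx, doublecortin, was low throughout, at 1.07 CPM in the Nacc1 knockdown, against 2.40 CPM in the Mbnl1/Mbnl2 knockdown and 0.684 CPM in the control. Cplx2, Syn1 and Grin1 were also the 3 of 24 REST targets that were lower, and that list had a median of -0.12. In the library pairs 1 neuronal gene passed in each, and the list medians were 0.06, 0.00 and 0.08.

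Genes of extracellular matrix and integrins had the lowest median of the lists plotted, -0.60, with 6 of 27 lower (22.2%, against 4.22% of all tested genes) and 0 higher. The mesenchymal markers had a median of -0.43 with 5 of 6 tested members below 0, and their part in this result was not tested. Itga3, an integrin subunit for laminin, stood at 1.43 CPM in the Nacc1 knockdown, against 4.71 CPM in the Mbnl1/Mbnl2 knockdown and 3.51 CPM in the control. Itgb3, an integrin subunit for vitronectin, stood at 1.47 CPM in the Nacc1 knockdown, against 4.59 CPM in the Mbnl1/Mbnl2 knockdown and 3.64 CPM in the control. Lama5, a laminin chain, stood at 6.68 CPM in the Nacc1 knockdown, against 17.4 CPM in the Mbnl1/Mbnl2 knockdown and 16.3 CPM in the control. The Nacc1 knockdown stood apart in each, but Lama5 also had 9.93 and 2.31 CPM in the libraries a and b of the Srrm4 knockdown. The list medians in the pairs were -0.02, -0.01 and -0.09. Of 25 members tested in each pair, 2 were higher and 1 lower in library a of the Srrm4 knockdown. In library a of the Zfp871 knockdown 1 was higher, and in that of the control 3 were higher. Members of this list thus also passed the rule between libraries of 1 group. Nid1, the basement membrane protein nidogen, stood at 1.03 CPM in the Nacc1 knockdown, against 2.25 CPM in the Mbnl1/Mbnl2 knockdown and 1.15 CPM in the control.

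Genes of glycolysis and the response to hypoxia had 6 of 31 members lower (19.4%, against 4.22% of all tested genes) and 0 higher, with a median of -0.42. Eno2, a neuronal enolase, stood at 24.4 CPM in the Nacc1 knockdown, against 87.2 CPM in the Mbnl1/Mbnl2 knockdown and 97.3 CPM in the control. Bnip3, a hypoxia-induced protein of mitophagy, stood at 42.6 CPM in the Nacc1 knockdown, against 115 CPM in the Mbnl1/Mbnl2 knockdown and 126 CPM in the control. Ndrg1 stood at 4.15 CPM in the Nacc1 knockdown, against 14.8 CPM in both other libraries. Ankrd37 stood at 3.72 CPM in the Nacc1 knockdown, against 10.2 CPM in the Mbnl1/Mbnl2 knockdown and 15.0 CPM in the control. These genes moved by more between libraries of 1 group: in the pairs 17, 11 and 12 of the 31 passed the rule, all higher in library a, with list medians of 1.04, 0.67 and 0.86. Bnip3 alone had 307 and 52.7 CPM in the libraries a and b of the Srrm4 knockdown, a wider gap than between the knockdowns here. The difference of this list is thus within what libraries of 1 group showed, and the part of culture conditions was not tested.

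Of 29 immediate early and MAP kinase feedback genes, 4 were lower (13.8%, against 4.22% of all tested genes) and 0 higher, with a median of -0.17. In the library pairs 2, 1 and 2 of the 29 passed the rule, all higher in library a, with list medians of 0.21, 0.00 and 0.28. Ier3, an immediate early gene of cell survival, stood at 3.92 CPM in the Nacc1 knockdown, against 20.8 CPM in the Mbnl1/Mbnl2 knockdown and 17.6 CPM in the control, but had 43.9 and 8.38 CPM in the libraries a and b of the second control. Jund, a subunit of AP-1, stood at 33.7 CPM in the Nacc1 knockdown, against 73.2 CPM in the Mbnl1/Mbnl2 knockdown and 73.0 CPM in the control, and lay between 59.9 and 75.2 CPM in the second experiment. Dusp4, a phosphatase of MAP kinases, stood at 90.5 CPM in the Nacc1 knockdown, against 188 CPM in the Mbnl1/Mbnl2 knockdown and 202 CPM in the control, and ranged from 65.4 to 186 CPM in the second experiment. Jund was thus lower than in any other library, and Dusp4 was not. Phlda1 stood at 9.36 CPM in the Nacc1 knockdown, against 25.1 CPM in the Mbnl1/Mbnl2 knockdown and 18.8 CPM in the control.

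Genes of DNA replication showed many small values on 1 side and none past the rule. Of 40 members, 0 passed, 39 had a log2 fold change above 0, and the median was 0.44, the highest of the lists. Pcna, the sliding clamp of DNA polymerases and an example chosen after its values were seen, stood at 339 CPM in the Nacc1 knockdown, against 251 CPM in the Mbnl1/Mbnl2 knockdown and 292 CPM in the control. The list medians in the library pairs were -0.15, -0.09 and -0.13. Cholesterol biosynthesis genes had 0 of 23 past the rule and a median of 0.29, and mitosis genes 0 of 32 and a median of 0.06. Neither SR proteins (0 of 19, median 0.14) nor hnRNP proteins (0 of 24, median 0.15) held a gene past the rule. Of 28 tissue-regulated splicing factors, Mbnl2 was higher and Celf5 lower. Celf5, a relative of the CELF proteins that oppose Mbnl at many exons, stood at 9.55 CPM in the Nacc1 knockdown, against 19.2 CPM in the Mbnl1/Mbnl2 knockdown and 18.9 CPM in the control. Srrm4, which drives inclusion of neural microexons, was level, at 86.6 CPM in the Nacc1 knockdown, 86.2 CPM in the Mbnl1/Mbnl2 knockdown and 85.1 CPM in the control.

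**Figure D5:**
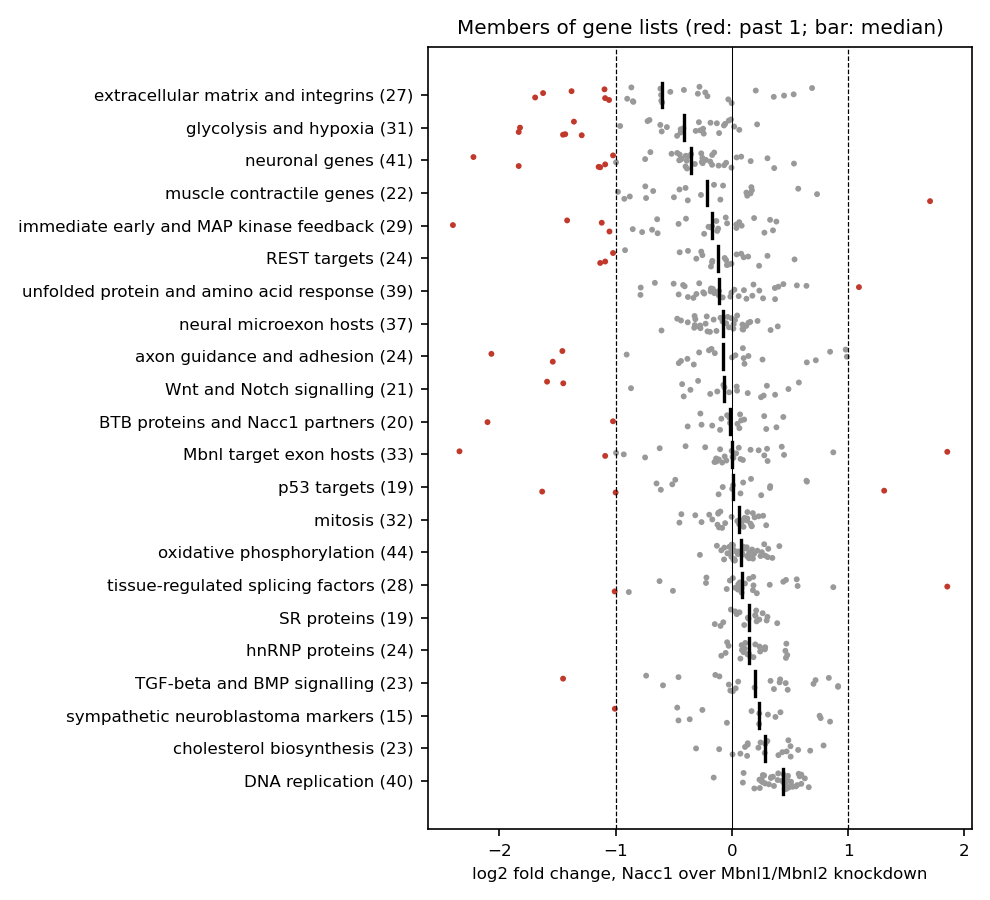
Log2 fold change of the Nacc1 knockdown over the Mbnl1/Mbnl2 knockdown (x axis) for the tested members of each gene list (rows, with the number tested), each gene a point. Red points are past 1 or -1 and black bars are list medians, from -0.60 for extracellular matrix and integrins at the top to 0.44 for DNA replication at the bottom.

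Smaller numbers passed in the other lists, and against the 4.73% of all tested genes past the rule, 1 member in a list of about 20 is near the background. Of 24 genes of axon guidance and adhesion, 3 were lower (Sema3f, Ephb3 and Slit1, each under 1 CPM in the Nacc1 knockdown) and 0 higher. Of 21 Wnt and Notch genes, Wnt3 and Tcf7 were lower, with Wnt3, a Wnt ligand, at 2.98 CPM in the Nacc1 knockdown, against 9.05 CPM in the Mbnl1/Mbnl2 knockdown and 4.58 CPM in the control. Tgfb1 was the 1 lower gene of 23 in TGF-beta and BMP signalling, at 1.88 CPM in the Nacc1 knockdown, against 5.21 CPM in the Mbnl1/Mbnl2 knockdown and 6.08 CPM in the control. Of 19 p53 targets, Ccng1 was higher and Btg2 and Bbc3 lower. Of 39 genes of the unfolded protein and amino acid response, Psat1, an aminotransferase of serine synthesis, was higher, at 1014 CPM in the Nacc1 knockdown, against 476 CPM in the Mbnl1/Mbnl2 knockdown and 794 CPM in the control. It was the most abundant gene past the rule among those named, and the second experiment had 699 to 883 CPM. Of 22 muscle contractile genes, Acta2 was higher, at 1.47 CPM in the Nacc1 knockdown, against 0.426 CPM in the Mbnl1/Mbnl2 knockdown and 3.82 CPM in the control, but reached 29.4 and 101.8 CPM in the Zfp871 knockdown libraries a and b. Besides Nacc1 itself, 1 of 20 BTB proteins and Nacc1 partners passed: Nacc2, the closest relative of Nacc1, at 0.516 CPM in the Nacc1 knockdown, against 1.08 CPM in the Mbnl1/Mbnl2 knockdown and 0.700 CPM in the control, on 31, 56 and 44 counts. Hosts of neural microexons held 0 of 37 past the rule, hosts of Mbnl target exons 1 higher (Mbnl2) and 2 lower (Ndrg2 and Grin1) of 33, and oxidative phosphorylation 0 of 44.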

How the data were processed

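PolyA RNA-seq of 2 N2A knockdown libraries was compared, 1 library a side. The authors deposited raw read counts per gene and cRPKM (RPKM corrected for uniquely mappable length), per the file headers; per the submitters' processing notes the build was mm9, with CASAVA 1.8 and edgeR listed without a role. Splicing was quantified with vast-tools per the series design text, and the deposited PSI values are in percent, with inclusion and exclusion reads per event; no source used here gives the aligner, the counting program or their versions. From these, PSI was computed as 100 times inclusion over inclusion plus exclusion reads for exons (deposited PSI for introns and sites), with a PSI of 2 to 98 required in at least 1 library. Counts were scaled with edgeR 4.0.16 TMM factors (R 4.3.3, prior count 2) over the 3 libraries of the first experiment; DESeq2 1.42.0 size factors were an alternative. Of the entries, 21553 list a count (0 included), and 1114 list none and were left out. Clopper-Pearson and Poisson intervals (95%) used SciPy 1.17.1 and cover counting error only, since PCR reads are not independent molecules.

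Named were the targeted genes, the 12 genes in each direction whose ratio had the counting bound farthest from 1 (at least 200 counts), up to 4 members past the rule per list and direction, the 12 exons and 5 microexons in each direction with the largest difference (at least 50 reads in both libraries, 1 per gene), and the 3 largest introns and sites. For an alternative site event the site with the largest difference was taken. The members, rules and lists were chosen with earlier results of these data known. Library pairs of the second experiment (total counts 44186088 to 61159670) were compared as library a over or minus library b, and the labels do not tie letters to replicate numbers. In simulated data of these libraries, 100% of 200 genes changed 4-fold among 21553 were recovered with 0 others called, and 100% of 200 exons shifted by 35 points among 54141 with 8 others called. The simulation held counting error only, and the changed genes and exons were drawn from well counted ones, the exons with middling PSI. It thus gives no rate of calls from variation between libraries. In the library pairs of the second experiment the same rules called 168 to 357 genes and 47 to 68 exons. Another 23 columns of values per library or condition were left out. Some exons and genes past the rules are not reported here.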

Additional observations from a re-analysis of the deposited data

How the results depend on the processing

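The counts followed the thresholds. With a PSI difference of 10 points, 198 exons were higher in the Nacc1 knockdown and 210 lower, and with 30 points 19 and 22. For genes, no minimum count gave 272 higher and 1291 lower, a minimum count of 200 gave 37 and 277, and a log2 fold change of 1.5 gave 14 and 184. A PSI difference of 10 points gave 969 higher and 736 lower introns and 316 higher and 310 lower alternative splice sites; a minimum of 50 reads gave 43 and 39 introns and 8 and 7 sites. Under the other settings tried (exons with at least 10 or 50 reads, deposited PSI, 1 exon per coordinate or the coverage score; genes with total counts only, DESeq2 size factors or prior counts of 0.5 and 10), each count of exons and genes stayed within 1.5 times the one reported. Total counts only moved the median of all tested genes to -0.04, with 51 genes higher and 573 lower. Settings that only change a minimum or a threshold cannot move the value of a named member, so such values stayed the same by construction. For exons only the deposited PSI could move a value, and for genes only the scaling or the prior count. With all settings included, 241 of 241 values of named exons stayed within a margin taken from the counting interval of the Nacc1 knockdown alone. Of the values of named genes, 371 of 381 stayed within a margin taken from the interval of their ratio. The other 10 were all under total counts only, and 0 changed sign. No paired analysis was possible because each group compared holds 1 library. Exons with about 50 reads have intervals some 25 points wide, so their order by size is loose.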
